A study of Homo sapiens with 18 samples.

Results

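The Krüppel-like factor (KLF) genes followed here are KLF2, KLF3, KLF4, KLF5, KLF6, KLF7, KLF9, KLF10, KLF11 and KLF13, which are 10 of the 33616 genes with at least 1 array transcript of their own in this series. They were found by name through the array annotation, as a family picked with earlier results of these data known. They have 11 transcripts among the 135750 tested, since KLF13 has 2, of which the one with the higher mean signal stands for the gene. The arrays, 18 Affymetrix whole-transcriptome chips, carried RNA from HT-29 and HCT116, established lines of human colon cancer cells, with 6 groups of 3. In each line, cells were left untreated or received 2.5 µM erastin (ER), a compound used to induce ferroptosis, during 4 h or 24 h, and 1 untreated group is the control of both times. No vehicle and no time in culture are stated for the untreated arrays, so ER cannot be told apart from either. The study asked which genes respond to a short and to a long exposure in both lines. The methods describe the cells as coming from 3 separate experiments, and the labels give replicate numbers without saying which experiment an array belongs to.

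KLF proteins are transcription factors whose zinc fingers at the carboxyl end bind GC boxes and CACCC boxes in promoters, sites they share with the related SP factors. Their other parts differ and recruit activators or, as with the CtBP and Sin3A corepressors, silencers, so members bound to like sites can act in opposite ways. In the gut lining KLF5 is known from the dividing cells of the crypts and KLF4 from the differentiated cells nearer the lumen. Several members are early response genes, whose RNA changes soon after a stimulus.

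Signals are normalized log2 values deposited by the authors, and a difference between groups is a log2 fold change. The table reaches 19.92, above the 16 bits of a scanner, so its scale is in doubt and every fold given here shares this doubt. With the thresholds of the study's methods, a transcript was taken as differentially expressed (DET) when limma, fitted to the 9 arrays of a line, gave a 1.2-fold or larger change with an unadjusted p no higher than 0.005. The number of arrays limits the precision, with a median SE of a log2 fold change of 0.29 in HT-29 and 0.24 in HCT116. Both lines carried epithelial markers at high level, with list means of 14.27 to 15.59, and the markers of endothelium, fibroblasts and leukocytes had list means of 5.08 to 6.82 on every array. The HT-29 arrays of replicate 1 stood apart from those of replicates 2 and 3. Of 14 colon differentiation markers, 7 lay over 2 log2 units above all HCT116 arrays in replicate 1, and 1, LYZ, did in replicates 2 and 3. Over all transcripts, HT-29 arrays of replicates 2 and 3 correlated with the HCT116 arrays at a median of 0.974 and with HT-29 replicate 1 at 0.963, and replicate 1 correlated with HCT116 at 0.969. Among themselves the HT-29 arrays of replicates 2 and 3 correlated at a median of 0.970. Their pairs with HCT116 arrays ranged from 0.934 to 0.983. The methods describe a separate normalization of each line. Whether every HT-29 array holds the line on its label was not tested, so statements on both lines rest on the labels. Changes of the KLF genes in HT-29 that the results turn on are therefore also given for replicates 2 and 3 alone. That setting leaves 2 arrays per group, and the share of all transcripts called in it was not counted.

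Of the 10 genes, 9 had a mean signal above the median transcript mean of 5.49, and KLF13, at 5.15, was at the 40.7th percentile. After 24 h of ER, 9 of the 10 genes had a log2 fold change above 0 in HT-29 cells, with a median of 0.53 against 0.02 over all transcripts, of which 52.4 percent were above 0. In HCT116 cells all 10 were above 0 at 24 h, with a median of 0.63 against -0.02 over all transcripts and 47.6 percent of these above 0. The signals of the 3 treated arrays lay above all 3 untreated ones for 4 genes in HT-29, where 5.12 percent of all transcripts did, and for 8 genes in HCT116, where 5.94 percent did. Among transcripts of a single gene at or above the median level these shares were 6.1 percent in HT-29 and 10.6 percent in HCT116. Of the same transcripts, 52 percent in HT-29 and 53.9 percent in HCT116 were above 0 at 24 h. At 4 h 5 genes were above 0 in HT-29, with 55 percent of all transcripts, and 10 in HCT116, with 47.4 percent, and the medians of the 10 genes were 0.05 in HT-29 and 0.27 in HCT116. The groups stood clear of each other at 4 h, with the treated arrays higher, for 0 genes in HT-29, with 4.95 percent of all transcripts, and for 3 genes in HCT116, with 4.49 percent. For single-gene transcripts at or above the median level, 48.3 percent in HT-29 and 55.5 percent in HCT116 were above 0 at 4 h. Their treated arrays stood clear above the untreated ones for 3.6 and 6.31 percent. The 10 genes were measured on the same arrays, so these counts do not rest on separate observations. In HCT116, replicate 1 was the lowest untreated array for KLF2, KLF4, KLF5, KLF6 and KLF10, and not for the other members. The part of that array in the counts of this line was not tested. In RNA of a whole culture, more cells that carry a transcript and more of it per cell cannot be told apart.

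**Figure D1:**
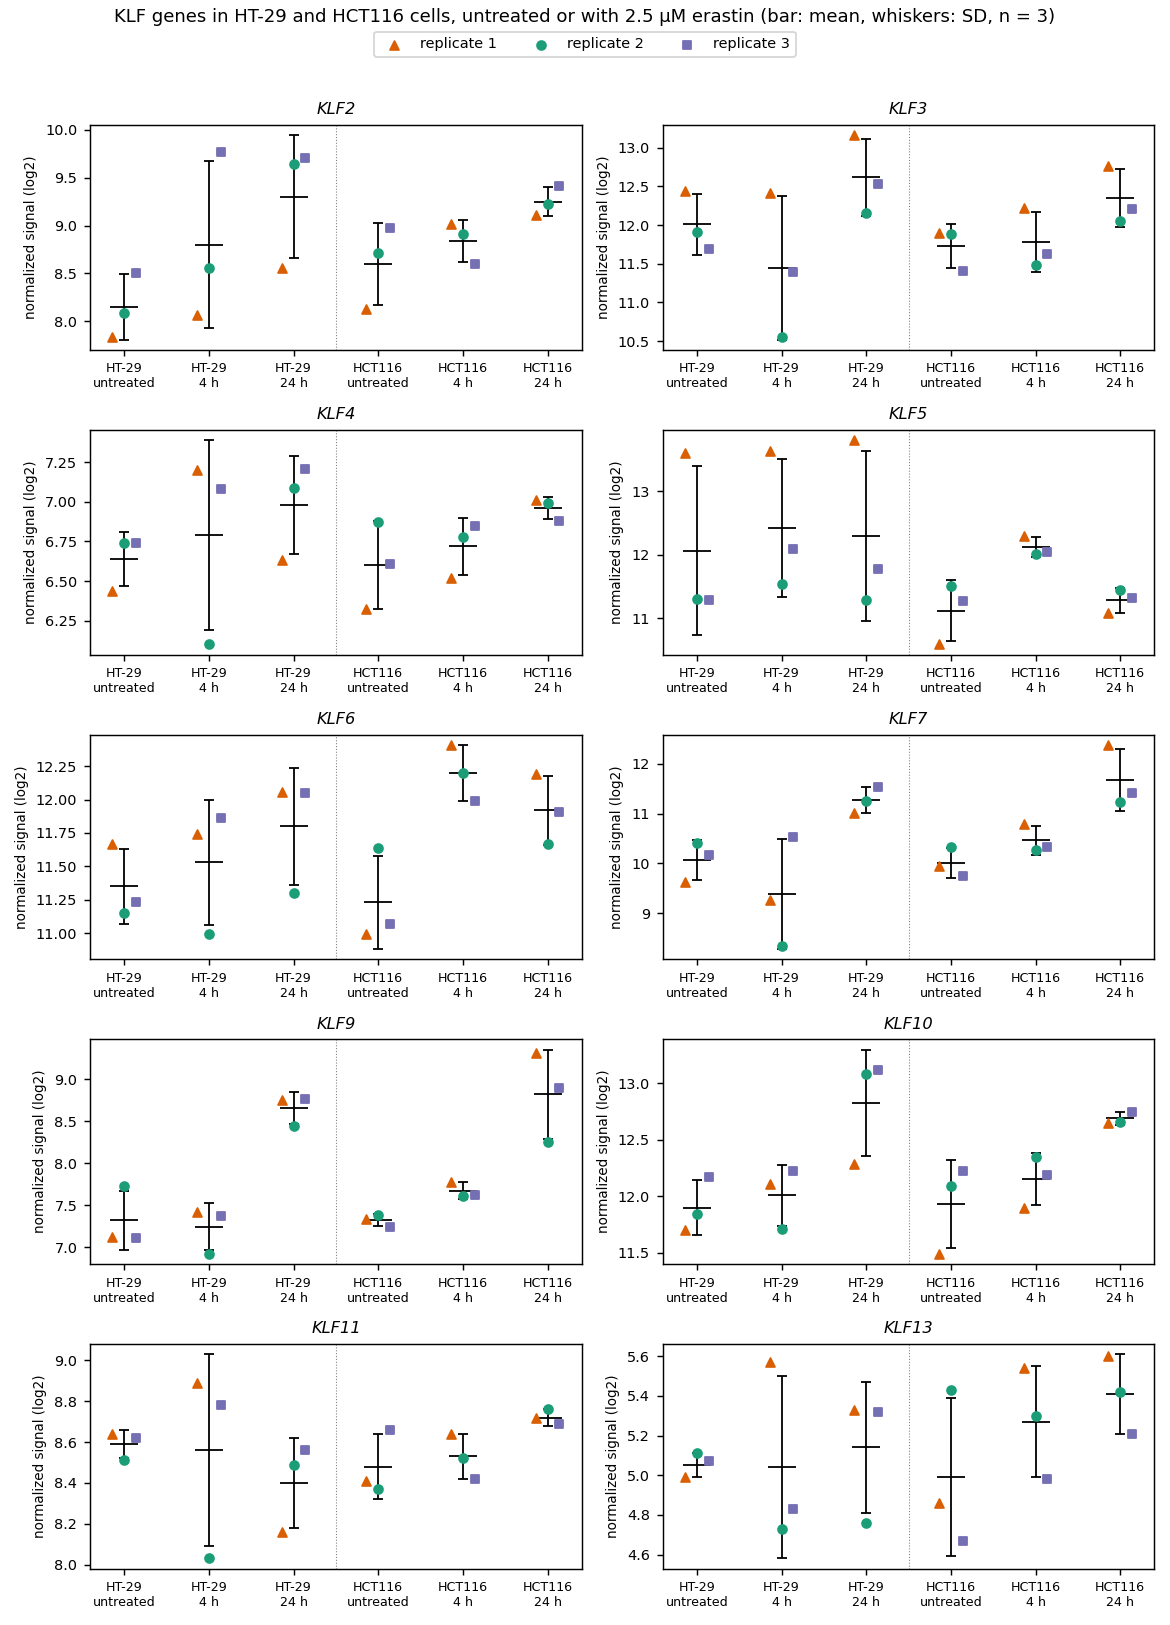
Normalized log2 signal of the 10 KLF genes on each array, by cell line and by time of ER, with 1 marker shape per replicate number and the mean and SD of 3 arrays in black. KLF9 lies between 8.25 and 9.31 on the 6 arrays at 24 h and between 6.92 and 7.78 on the 12 others.

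As DETs, 1 of the 10 genes, KLF9, was higher in HT-29 at 24 h and 2, KLF7 and KLF9, in HCT116 at 24 h, where 0.233 and 0.824 percent of all transcripts were higher DETs. At 4 h there were 0 in HT-29 and 2, KLF5 and KLF6, in HCT116, where 0.147 and 0.116 percent were. From 4 h to 24 h, KLF7 and KLF9 were higher DETs in both lines, with 0.517 percent of all transcripts in HT-29 and 1.26 percent in HCT116. Among transcripts of a single gene at or above the median level, most of these shares were larger. In HT-29 they were 0.129 percent at 4 h, 0.568 percent at 24 h and 1.39 percent between the times. In HCT116 they were 0.154, 2.29 and 3.16 percent. None of the 10 was a lower DET in any of these 6 comparisons, while of all transcripts 0.0766, 0.144 and 0.389 percent were in HT-29 at 4 h, at 24 h and between these times, and 0.175, 0.413 and 0.785 percent in HCT116. After Benjamini-Hochberg correction over all transcripts, 0 of the 10 passed an adjusted p under 0.05 in limma in any of them. Of all transcripts 0, 0.00221 and 0.0228 percent passed in HT-29 at 4 h, at 24 h and between the times, and 0, 0.0081 and 0.0832 percent in HCT116. An unadjusted p under 0.05 against untreated cells was reached in HT-29 by 0 of the 10 at 4 h, with 3.51 percent of all transcripts, and 4 at 24 h, with 3.69 percent. In HCT116 it was reached by 2 at 4 h, with 3.85 percent, and 6 at 24 h, with 8.53 percent. The Student's t-test named in the methods left 0 after correction as well. Here its p-values came from the t distribution, without the permutation that the methods describe. It is called the methods' t-test below, and the study's own p-values were not reproduced.

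KLF9 was the 1 KLF gene that was a DET against untreated cells at 24 h in both lines. It is known as a factor induced by glucocorticoid and thyroid hormone, and as a target of the oxidative stress regulator NRF2 that represses the thioredoxin reductase gene TXNRD2. KLF9 signals in HT-29 cells were 7.12, 7.73 and 7.11 on untreated arrays, 7.42, 6.92 and 7.37 at 4 h and 8.75, 8.44 and 8.76 at 24 h. In HCT116 cells they were 7.33, 7.38 and 7.24 untreated, 7.78, 7.61 and 7.62 at 4 h and 9.31, 8.25 and 8.89 at 24 h. In both lines all 3 arrays at 24 h were above all 6 earlier ones, and in HCT116 the 4 h arrays too were above the untreated ones. The log2 fold change of KLF9 at 24 h against untreated was 1.33 (SE 0.26), or 2.52-fold, in HT-29 and 1.5 (SE 0.25), or 2.83-fold, in HCT116, with limma adjusted p-values of 0.693 and 0.13. Against 4 h it was 1.42 (SE 0.26) in HT-29 and 1.15 (SE 0.25) in HCT116, with adjusted p-values of 0.181 and 0.125. KLF9 stayed a DET at 24 h, against untreated and against 4 h, in both lines whichever 1 of the 9 arrays was left out. The methods' t-test with the same thresholds called KLF9 in HT-29 in both comparisons and in HCT116 in neither. With HT-29 replicates 2 and 3 alone its change against untreated was 1.18 (SE 0.34), no longer a DET, and against 4 h 1.45 (SE 0.34), a DET. Over the alternative settings and fits, its adjusted p at 24 h against untreated ran between 0.135 and 1 in HT-29 and between 0.025 and 0.701 in HCT116.

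KLF7, a member expressed in many tissues and known from the growth of nerve cell axons, rose at 24 h in HCT116 and, against 4 h, in both lines. Its signals in HT-29 cells were 9.62, 10.41 and 10.16 untreated, 9.26, 8.34 and 10.54 at 4 h and 11.02, 11.26 and 11.54 at 24 h. In HCT116 cells they were 9.95, 10.33 and 9.75 untreated, 10.79, 10.27 and 10.33 at 4 h and 12.38, 11.23 and 11.41 at 24 h. The 24 h arrays were the highest in each line, and the HT-29 arrays at 4 h spread over more than 2 log2 units. At 24 h against untreated, the log2 fold change of KLF7 in HT-29 was 1.22 (SE 0.45), or 2.32-fold, not a DET (limma adjusted p = 1), and it became one when replicate 3 at 4 h was left out, which narrowed the SE to 0.31. With replicates 2 and 3 alone it was 1.12 (SE 0.57). That array also decided the value at 4 h in HT-29, which was -0.68 (SE 0.45) with it and -1.26 (SE 0.35), a lower DET, without it. In HCT116 the change at 24 h was 1.66 (SE 0.30), or 3.16-fold (adjusted p = 0.15), a DET whichever array was left out but not by the methods' t-test, in which its SE was 0.40. Against 4 h, KLF7 at 24 h was higher by 1.90 (SE 0.45, adjusted p = 0.383) in HT-29 and 1.21 (SE 0.30, adjusted p = 0.169) in HCT116. It was no DET in HT-29 without replicate 3 at 24 h, at 1.76, or with replicates 2 and 3 alone, at 1.96 (SE 0.57). In HCT116 the call was lost without replicate 2 at 4 h, at 1.11, without replicate 3 at 4 h, at 1.15, and without replicate 1 at 24 h, at 0.86, and the methods' t-test called this comparison in neither line.

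Sequences before the starts of the genes are shown for the members whose RNA stood out, as a look at which known regulatory motifs lie there. They are the 250 bases before a RefSeq start (GRCh38.p14), 5′ to 3′ on the strand of the gene, with motif matches in capitals. For 8 of the 10 genes 13 windows were used, since some genes have several starts. KLF3 and KLF10 were not used here. Searched on both strands were the GC box GGGCGG, the CACCC box CCACCC, the CRE TGACGTCA, the AP-1 site TGANTCA, the amino acid response element core TGATGNAA, the antioxidant response element core TGACNNNGC, which can overlap the AP-1 site, and the CArG box and MEF2 site by name. Of all 35116 windows, 42.6 percent hold a GC box, 31.3 percent a CACCC box, 10.9 percent an antioxidant response element core, 6.57 percent an AP-1 site, 3.14 percent an amino acid response element core, 1.65 percent a CRE, 1.16 percent a CArG box and 0.515 percent a MEF2 site. The window of KLF9, at chr9:70414658-70414907 on the minus strand, has a GC content of 32.4 percent and none of these letters. Of the 4 windows of KLF7, the one at chr2:207166857-207167106 on the minus strand, which lies within the span of the gene before one of its later starts, has a GC content of 72 percent and 4 GC boxes.
KLF9: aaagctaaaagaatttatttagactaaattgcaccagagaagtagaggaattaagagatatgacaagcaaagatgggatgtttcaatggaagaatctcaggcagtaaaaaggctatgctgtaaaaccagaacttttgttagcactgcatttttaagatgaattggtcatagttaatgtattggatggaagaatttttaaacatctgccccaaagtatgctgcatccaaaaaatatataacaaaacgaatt
KLF7: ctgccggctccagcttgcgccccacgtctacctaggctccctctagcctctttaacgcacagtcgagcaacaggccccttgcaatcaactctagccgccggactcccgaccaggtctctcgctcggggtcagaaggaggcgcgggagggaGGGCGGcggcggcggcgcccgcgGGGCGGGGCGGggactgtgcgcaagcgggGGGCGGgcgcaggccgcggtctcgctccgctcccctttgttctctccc
Another KLF7 window holds a CArG box at position -62 from the start, another 2 CACCC boxes, and the last none of the motifs. A match is a run of letters and not a measured binding site.

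KLF10 and KLF2 were also higher at 24 h in both lines without being DETs. KLF10, first described as a gene induced early by TGF-β, had signals in HT-29 of 11.70, 11.84 and 12.17 untreated, 12.11, 11.71 and 12.22 at 4 h and 12.29, 13.08 and 13.12 at 24 h. In HCT116 they were 11.49, 12.09 and 12.22 untreated, 11.90, 12.35 and 12.19 at 4 h and 12.65, 12.66 and 12.75 at 24 h. In both lines the arrays at 24 h lay above all others, by the narrowest margin for replicate 1 in HT-29. The log2 fold change of KLF10 at 24 h against untreated was 0.93 (SE 0.28, limma adjusted p = 1) in HT-29 and 0.75 (SE 0.23, adjusted p = 0.421) in HCT116. It was a DET without replicate 1 at 24 h in HT-29, at 1.2, and without untreated replicate 3 in HCT116, at 0.90, and it was 1.09 (SE 0.32), not a DET, with HT-29 replicates 2 and 3 alone, which gave a DET against 4 h, at 1.13 (SE 0.32).

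KLF2 is known from endothelium, where blood flow induces it through the kinase MEK5 (gene MAP2K5), the kinase ERK5 and MEF2 factors, and from resting T cells. In HT-29 cells its signals were 7.84, 8.09 and 8.51 untreated, 8.07, 8.56 and 9.77 at 4 h and 8.56, 9.64 and 9.70 at 24 h. In HCT116 cells they were 8.13, 8.71 and 8.97 untreated, 9.02, 8.91 and 8.60 at 4 h and 9.11, 9.22 and 9.41 at 24 h. All arrays at 24 h exceeded the untreated ones of their line, in HT-29 by 0.05 for replicate 1 over the highest of them. At 24 h against untreated the log2 fold change was 1.15 (SE 0.43, limma adjusted p = 1) in HT-29 and 0.65 (SE 0.24, adjusted p = 0.492) in HCT116. Without replicate 1 at 24 h it was a DET in HT-29, at 1.52, and with replicates 2 and 3 alone it was 1.37 (SE 0.40), not a DET. The window before KLF2, at chr19:16324576-16324825 on the plus strand, is shown because it is the single one of the 13 with a MEF2 site, at position -120 from the start. It also holds 4 GC boxes at a GC content of 80 percent.
KLF2: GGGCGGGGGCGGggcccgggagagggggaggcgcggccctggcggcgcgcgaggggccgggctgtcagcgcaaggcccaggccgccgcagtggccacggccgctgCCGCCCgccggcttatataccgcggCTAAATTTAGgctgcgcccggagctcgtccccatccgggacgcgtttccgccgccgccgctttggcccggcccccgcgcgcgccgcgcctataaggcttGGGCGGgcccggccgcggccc

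**Figure D2:**
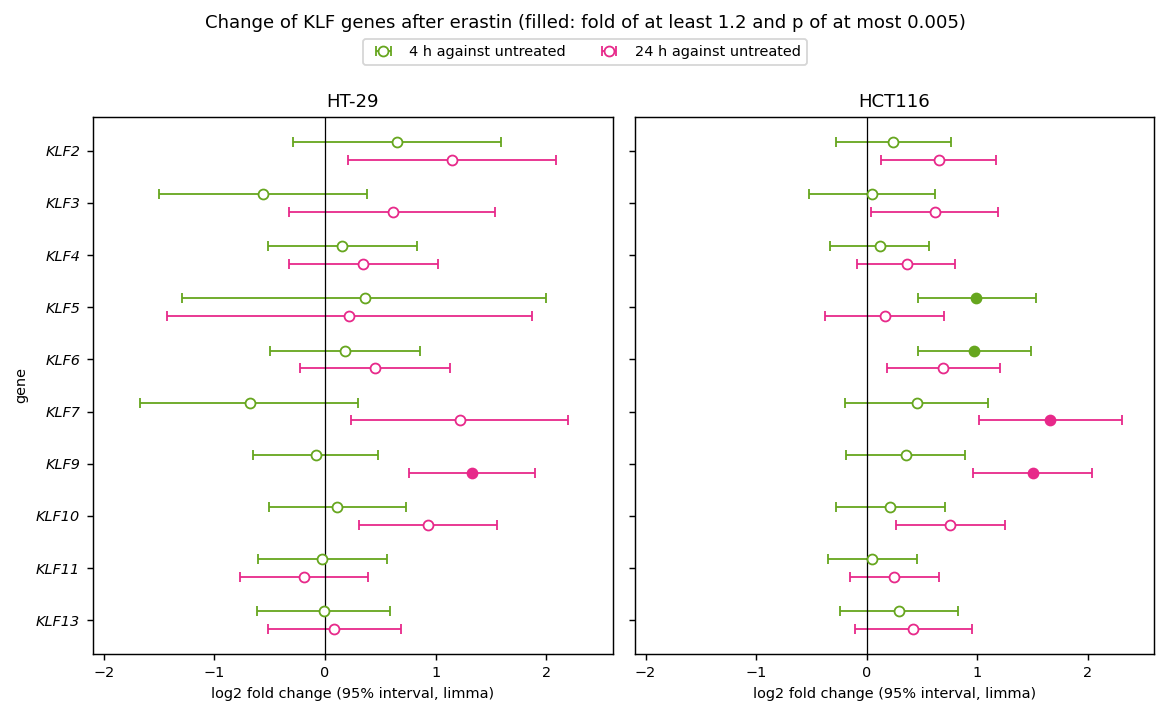
Log2 fold change of the 10 KLF genes after 4 h and 24 h of ER against untreated cells, with 95% intervals from limma, in HT-29 on the left and HCT116 on the right, where a filled point is a DET. KLF9 is filled at 24 h in both lines, at 1.33 and 1.5, and KLF5 and KLF6 are filled at 4 h in HCT116, at 0.99 and 0.97.

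At 4 h the DETs among the 10 genes were KLF5 and KLF6, in HCT116. Neither had an adjusted p under 0.05, and for neither was the difference between lines a DET. KLF6, an early response gene described as a tumor suppressor that induces the cell cycle inhibitor CDKN1A, had HT-29 signals of 11.67, 11.15 and 11.23 untreated, 11.74, 10.99 and 11.86 at 4 h and 12.06, 11.30 and 12.05 at 24 h. These groups overlapped, and the log2 fold changes were 0.18 (SE 0.31) at 4 h and 0.45 (SE 0.31) at 24 h, or 0.24 (SE 0.38) and 0.49 (SE 0.38) with replicates 2 and 3 alone. In HCT116 the signals of KLF6 were 10.99, 11.64 and 11.07 untreated, 12.41, 12.20 and 11.99 at 4 h and 12.19, 11.67 and 11.91 at 24 h. In that line all arrays with ER were above all untreated ones, the 24 h array of replicate 2 by 0.03. At 4 h the log2 fold change was 0.97 (SE 0.24), or 1.95-fold, and at 24 h 0.69 (SE 0.24), not a DET, with limma adjusted p-values of 1 and 0.458. The difference of KLF6 between 24 h and 4 h was -0.27 (SE 0.24). The call at 4 h was lost without untreated replicate 1, at 0.85, without untreated replicate 3, at 0.88, and without replicate 1 at 4 h, at 0.86, while the change at 24 h was a DET without untreated replicate 2, at 0.89.

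KLF5, the crypt factor of the family, split in HT-29 by replicate number and not by treatment. Its signals were 13.60, 11.30 and 11.29 untreated, 13.63, 11.54 and 12.09 at 4 h and 13.80, 11.28 and 11.77 at 24 h, so that replicate 1 stood above the others by more than 1.5 log2 units at each time. The mean over the 3 groups was 13.68 in replicate 1, 11.38 in replicate 2 and 11.72 in replicate 3, against 11.51 over the HCT116 arrays, which per the methods were normalized separately. The same arrays differed in some of the markers of colon differentiation. LYZ, the lysozyme gene, averaged 17.12 in replicate 1, 10.34 in replicate 2 and 11.24 in replicate 3 of HT-29, against 5.84 in HCT116. KRT20, a keratin of differentiated gut epithelium, averaged 14.15, 8.68 and 9.02 in these replicates, against 7.30 in HCT116. Both are among the 7 of 14 markers that were over 2 log2 units above all HCT116 arrays in replicate 1. Other markers of the list did not follow, such as CDX2, at 8.10, 8.90 and 9.30 against 9.04 in HCT116. The part of this split in the KLF5 values was not tested. The log2 fold change of KLF5 in HT-29 was 0.36 (SE 0.76) at 4 h, or 0.52 (SE 0.33) with replicates 2 and 3 alone. At 24 h it was 0.22 (SE 0.76), or 0.23 (SE 0.33) with these replicates, with no DET in any case. Leaving out 1 array at a time moved the change at 24 h between -0.54, without replicate 1 at 24 h, and 0.99. For the other 9 genes, the 3 means by replicate number lay closer, with the widest gap in KLF2 (8.16, 8.76 and 9.33) and KLF3 (12.67, 11.54 and 11.87).

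**Figure D3:**
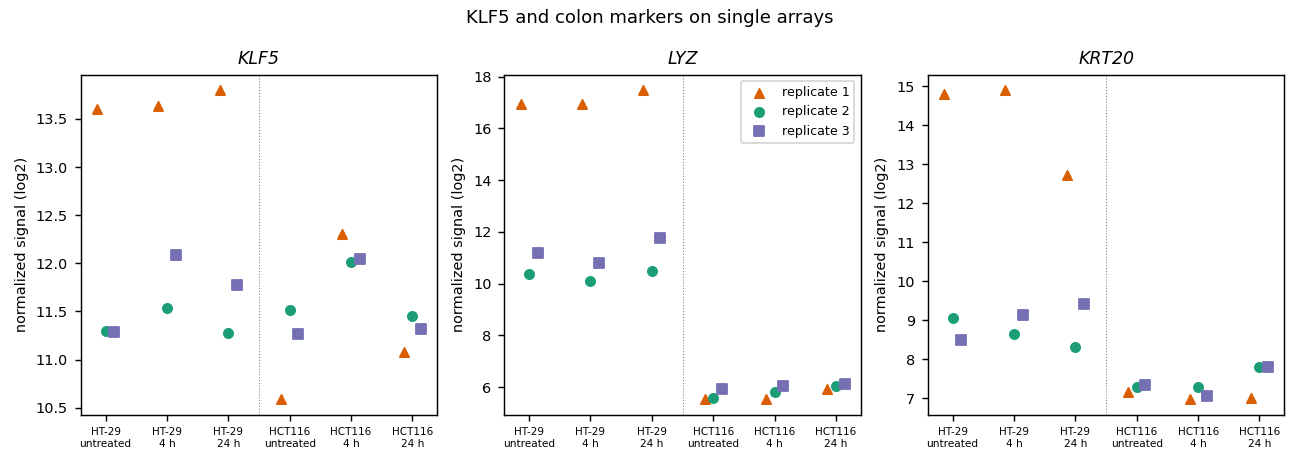
Normalized log2 signal of KLF5 and of the colon markers LYZ and KRT20 on each of the 18 arrays, by group, with 1 marker shape per replicate number. In HT-29, replicate 1 has KLF5 at 13.60 to 13.80 and the other arrays at 11.28 to 12.09, and the same 3 arrays are the highest in LYZ and KRT20.

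KLF5 in HCT116 had signals of 10.59, 11.51 and 11.27 untreated, 12.30, 12.01 and 12.04 at 4 h and 11.08, 11.45 and 11.32 at 24 h. The 4 h arrays were above both other groups, which overlapped each other. KLF5 was higher by 0.99 (SE 0.25), or 1.99-fold, at 4 h against untreated (limma adjusted p = 1), and by 0.16 (SE 0.25) at 24 h, not a DET. At 24 h against 4 h the difference was -0.83 (SE 0.25, adjusted p = 0.248), which at an unadjusted p of 0.00528 narrowly missed the threshold of a DET. It was a lower DET by the methods' t-test, with only the arrays compared, among transcripts of single genes, with the mean of a gene's transcripts, after quantile normalization, and without untreated replicate 1 or untreated replicate 2. Without untreated replicate 1 the change of KLF5 was 0.73 at 4 h, no DET, and -0.11 at 24 h, and without replicate 1 at 4 h it was 0.90, no DET. The methods' t-test called neither KLF5 nor KLF6 at 4 h. The windows of both genes are shown, as the pair that were DETs by limma at 4 h in HCT116. That of KLF6, at chr10:3785210-3785459 on the minus strand, has a GC content of 72.4 percent and 2 GC boxes. That of KLF5, at chr13:73058755-73059004 on the plus strand, lies within the span of the gene before its second start, with a GC content of 70.8 percent and 2 GC boxes, and none of the motifs was found in the window of the first start.
KLF6: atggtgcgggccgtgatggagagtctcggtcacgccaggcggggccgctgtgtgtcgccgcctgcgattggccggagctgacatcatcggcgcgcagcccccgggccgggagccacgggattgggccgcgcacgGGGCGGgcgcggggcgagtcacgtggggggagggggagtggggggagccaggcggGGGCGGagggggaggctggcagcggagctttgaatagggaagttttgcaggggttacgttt
KLF5: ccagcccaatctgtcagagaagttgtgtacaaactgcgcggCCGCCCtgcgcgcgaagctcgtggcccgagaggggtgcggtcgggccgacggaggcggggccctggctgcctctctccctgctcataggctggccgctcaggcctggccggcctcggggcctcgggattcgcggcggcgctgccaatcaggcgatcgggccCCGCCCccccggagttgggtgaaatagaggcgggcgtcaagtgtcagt

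None of the remaining members was a DET in these comparisons. KLF3, a repressor that works through CtBP, had HT-29 signals of 12.44, 11.91 and 11.69 untreated, 12.42, 10.56 and 11.39 at 4 h and 13.16, 12.16 and 12.53 at 24 h, and HCT116 signals of 11.90, 11.88 and 11.41, of 12.22, 11.49 and 11.63 and of 12.77, 12.06 and 12.21 at the same times. Its 24 h arrays stood above the untreated ones in HCT116 and overlapped them in HT-29. The log2 fold changes of KLF3 at 24 h against untreated were 0.61 (SE 0.43) and 0.62 (SE 0.26) in HT-29 and HCT116, and against 4 h in HT-29 1.17 (SE 0.43), which with replicates 2 and 3 alone was 1.38 (SE 0.35), a DET. KLF4 ranged between 6.10 and 7.21 in HT-29 and between 6.32 and 7.01 in HCT116, with changes at 24 h of 0.34 (SE 0.31) and 0.36 (SE 0.20). Its 24 h arrays in HCT116, at 7.01, 6.99 and 6.88, were above the untreated ones, the highest of which was 6.87. KLF11, a TGF-β-inducible relative of KLF10 that recruits Sin3A, lay between 8.03 and 8.89 on all arrays, and its changes at 24 h were -0.19 (SE 0.27) in HT-29 and 0.25 (SE 0.18) in HCT116. KLF13, known for switching on the chemokine gene CCL5 in T cells, ranged between 4.67 and 5.60, with changes at 24 h of 0.08 (SE 0.28) and 0.42 (SE 0.24). The second transcript of KLF13, with a mean of 4.22, gave -0.11 (SE 0.30) and -0.33 (SE 0.22) at 24 h, the opposite sign in both lines.

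The response of the 10 genes did not pass as a DET in the test of the difference between lines, in which HT-29 minus HCT116 gave 0 calls at 4 h, 0 at 24 h and 0 between the times, with 0.277, 0.322 and 0.358 percent of all transcripts called in either direction. In limma 0 of the 10 had an adjusted p under 0.05, as had 0 percent of all transcripts, and 0 had an unadjusted p under 0.05 in any of the 3, which 3.78, 3.6 and 4.21 percent of all transcripts had. At 24 h the difference was -0.17 for KLF9, with a 95% interval of -0.92 to 0.58, and -0.45 for KLF7, with an interval of -1.67 to 0.78. At 4 h it was -0.79 for KLF6 (-1.62 to 0.04), -0.64 for KLF5 (-2.49 to 1.21) and -1.13 for KLF7 (-2.36 to 0.09). Each of these intervals holds 0, which does not show that the lines responded alike. The difference of KLF7 at 4 h was a DET, at -1.71, without replicate 3 at 4 h in HT-29.

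Over the 18 arrays, with the mean of each line subtracted, KLF7 and KLF9 had a Pearson correlation of 0.89, the highest of the pairs of members, KLF2 and KLF10 of 0.79, KLF5 and KLF6 of 0.61, and KLF4 and KLF5 of 0.01. These are descriptions, since the arrays share their treatment groups and replicate numbers. Among 23953 transcripts of single genes at or above the median level, those most like KLF9 were of ULBP1 (r = 0.95), a ligand of the natural killer cell receptor NKG2D, SAT1 (0.94), which acetylates spermidine and spermine, and RBCK1 (0.94), a subunit of the linear ubiquitin ligase. Those most like KLF7 were of MAP1B (0.93), a microtubule-associated protein, FAM241A (0.93) and DNASE2 (0.92), a lysosomal nuclease. Most like KLF5 were SLC44A4 (0.91), GLIS3 (0.91), a zinc finger factor, and TM4SF1 (0.90). Subtracting the line mean leaves in the split of KLF5 by replicate number in HT-29. All correlations of KLF5, also those with KLF4 and KLF6, therefore include that split. Most like KLF6 were OCLN (0.86), the tight junction protein occludin, the pseudogene MRPL37P1 (0.85) and CHMP3 (0.82), a subunit of the membrane-remodelling ESCRT machinery.

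Of 8 other KLF genes 7 were measured, and 1, KLF12, a repressor that like KLF3 works through CtBP, was a DET, higher in HCT116 at 24 h. In that comparison 0.824 percent of all transcripts were higher DETs. KLF12 signals in HCT116 were 8.08, 8.30 and 7.35 untreated, 9.10, 8.23 and 7.93 at 4 h and 9.92, 9.29 and 8.66 at 24 h. Its log2 fold change at 24 h was 0.64 (SE 0.33) in HT-29, not a DET, and 1.38 (SE 0.37, limma adjusted p = 0.358) in HCT116. The 7 genes had a median of 0.29 in HT-29 and 0.26 in HCT116 at 24 h. All 9 SP genes were measured, with medians at 24 h of 0.20 in HT-29 and -0.01 in HCT116, and none was a DET in any comparison within a line. Nor was any of the 9 measured of 11 cofactors of KLF proteins, which include CTBP1, SIN3A and the histone deacetylases HDAC1 and HDAC2, with medians at 24 h of 0.08 in HT-29 and 0.31 in HCT116. Of all transcripts 0.223 to 2.04 percent were DETs in either direction in the comparisons within a line.

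Among 17 regulators that act upstream of KLF genes, 1 of each was a higher DET in HT-29 at 24 h (EGR1), in HCT116 at 4 h (SRF) and in HCT116 at 24 h (MAP2K5), 0 in HT-29 at 4 h, and none was a lower DET against untreated cells. Of all transcripts 0.147 and 0.233 percent were higher DETs in HT-29 at 4 h and 24 h, and 0.116 and 0.824 percent in HCT116. SRF, the serum response factor that binds CArG boxes in early response genes, had HCT116 signals of 9.59, 10.14 and 10.37 untreated, 11.32, 11.18 and 11.03 at 4 h and 9.26, 9.67 and 10.33 at 24 h. Like KLF5 and KLF6 in that line, its 4 h arrays were above all untreated ones, as were those of 4.49 percent of all transcripts. A link of SRF to KLF5 or KLF6 was not tested, and their windows hold no CArG box. The log2 fold change of SRF at 4 h was 1.12 (SE 0.41) in HT-29, not a DET, and 1.14 (SE 0.28, limma adjusted p = 1) in HCT116. At 24 h against 4 h it was -1.40 (SE 0.41) in HT-29, not a DET, and -1.42 (SE 0.28, adjusted p = 0.0972) in HCT116, a lower DET. EGR1, an early response zinc finger factor that also binds GC-rich sites, had HT-29 signals of 12.19, 11.86 and 12.27 untreated, 12.07, 11.09 and 12.05 at 4 h and 13.31, 13.83 and 13.87 at 24 h. Its change at 24 h was 1.56 (SE 0.30, adjusted p = 0.693) in HT-29. HCT116 cells had 0.80 (SE 0.31) for EGR1, not a DET. MAP2K5, the MEK5 gene named above for KLF2, had HCT116 signals of 7.41, 6.93 and 7.02 untreated, 6.82, 6.91 and 6.96 at 4 h and 7.90, 7.95 and 7.83 at 24 h, with all 24 h arrays above the others. Its change at 24 h was 0.36 (SE 0.32) in HT-29, not a DET, and 0.77 (SE 0.19, adjusted p = 0.332) in HCT116. MAPK7, the gene of ERK5, was at 0.04 (SE 0.26) in HT-29 and -0.10 (SE 0.22) in HCT116 at 24 h. MEF2A, MEF2C and MEF2D were then at 0.20, -0.34 and 0.37 in HT-29 and at 0.46, 0.52 and -0.01 in HCT116. None of these changes was a DET, and a link of MAP2K5 to KLF2 was not tested. Between 4 h and 24 h, 2 of the 17 were higher DETs in HT-29, EGR1 and MAP2K5, and 2 in HCT116, MAP2K5 and MEF2C, with SRF the 1 lower DET. Of all transcripts 0.517 percent were higher DETs there in HT-29, and 1.26 percent higher and 0.785 percent lower in HCT116. With HT-29 replicates 2 and 3 alone, a setting added for the lists after the data were seen, EGR1 was at 1.78 (SE 0.37, limma adjusted p = 0.816) at 24 h, a DET. SRF was then a DET in HT-29 too, higher at 4 h, at 1.74 (SE 0.32, adjusted p = 0.341). Between 4 h and 24 h SRF was a lower DET, at -1.43 (SE 0.32, adjusted p = 0.315). MAP2K5 was a lower DET at 4 h, at -1.36 (SE 0.34, adjusted p = 0.362), and a higher one between the times, at 1.62 (SE 0.34, adjusted p = 0.288). The share of all transcripts called in this setting was not counted.

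**Figure D4:**
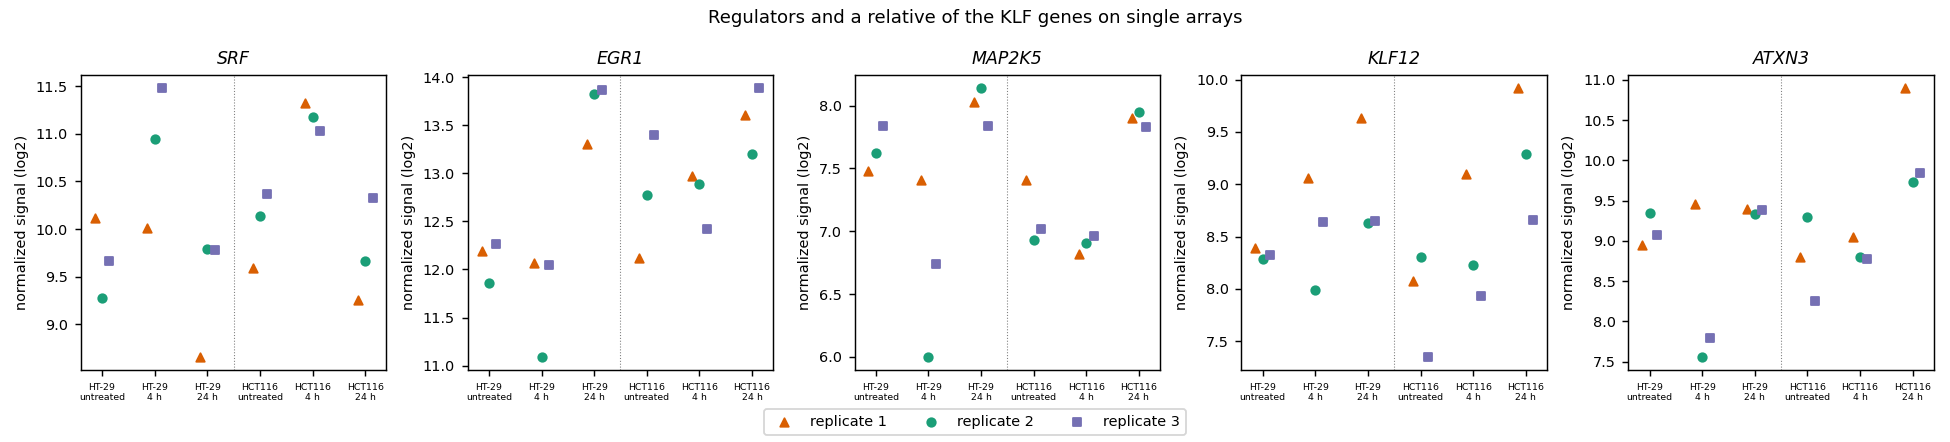
Normalized log2 signal of SRF, EGR1, MAP2K5, KLF12 and ATXN3 on each array, by group, with 1 marker shape per replicate number. In HCT116 SRF is highest at 4 h, between 11.03 and 11.32, and MAP2K5 at 24 h, between 7.83 and 7.95.

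Of 9 ubiquitin ligases and deubiquitinases that act on KLF proteins 7 were measured, and 1, ATXN3, a deubiquitinase described for KLF4, was a DET against untreated cells, in HCT116 at 24 h. In that comparison 0.824 percent of all transcripts were higher DETs. ATXN3 signals in HCT116 were 8.80, 9.30 and 8.26 untreated and 10.90, 9.73 and 9.84 at 24 h, without overlap. Its log2 fold change at 24 h was 0.25 (SE 0.41) in HT-29 and 1.37 (SE 0.33, limma adjusted p = 0.305) in HCT116, where it was also a DET against 4 h, at 1.28 (SE 0.33). With HT-29 replicates 2 and 3 alone ATXN3 was a lower DET at 4 h, at -1.54 (SE 0.30, adjusted p = 0.341). Between 4 h and 24 h ATXN3 was then a higher DET, at 1.68 (SE 0.30, adjusted p = 0.186). The share of all transcripts called with these replicates alone was not counted, here or for the targets below. Of 18 described targets of KLF factors 17 were measured, and none was a DET against untreated cells at 4 h or 24 h in either line. Of all transcripts 0.223 to 1.24 percent were, in either direction. CDKN1A, the target named above for KLF6, was at -0.18 (SE 0.23) at 4 h in HCT116, and TXNRD2, named above for KLF9, at -0.08 (SE 0.40) in HT-29 and 0.28 (SE 0.26) in HCT116 at 24 h, none of them a DET. From 4 h to 24 h, 3 targets were DETs. Of all transcripts 0.389 percent were lower DETs between these times in HT-29, and 0.785 percent lower and 1.26 percent higher in HCT116. The cyclin gene CCNE1 was lower in HT-29, at -1.24 (SE 0.33, adjusted p = 0.487), the cyclin gene CCND1 lower in HCT116, at -1.22 (SE 0.28, adjusted p = 0.138), and the monoamine oxidase gene MAOA higher in HCT116, at 0.81 (SE 0.22, adjusted p = 0.217). With HT-29 replicates 2 and 3 alone CCNE1 was at -1.22 (SE 0.34, adjusted p = 0.428), a DET, and CDKN1A a higher DET, at 1.38 (SE 0.32, adjusted p = 0.337). MAPK7, MEF2A, MEF2C, MEF2D, CDKN1A, TXNRD2 and these 3 targets fall outside the rule for named genes and were chosen after their values were seen.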

How the data were processed

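The authors deposited normalized log2 signals of each transcript on each array. Per the methods they applied RMA to the 2 cell lines separately and took log2 values, and they also ran further software from the array's manufacturer. Which of the programs gave the deposited values is not given in the sources used here. Levels are thus set side by side across lines and not tested. Of 138745 features, 2995 controls were left out. Genes were named from the platform annotation, using transcripts of a single gene (36176), and chromosomes and the 250-base windows came from RefSeq (GRCh38.p14).

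A limma 3.58.1 fit (lmFit, then eBayes, under R 4.3.3 with the package data.table, version 1.17.8) of the 9 arrays of a line covered all 135750 transcripts, with differences between lines from a fit of all 18 arrays. DETs changed 1.2-fold or more with an unadjusted p no higher than 0.005, and Benjamini-Hochberg adjusted p-values run over all transcripts. The genes, lists and tests were chosen with earlier results of these data known. Named are all 10 KLF genes, list members that were DETs against untreated cells, and the 3 transcripts most correlated with each KLF gene that was a DET. The scripts were tested on simulated data. Alternatives were the methods' t-test, a replicate block, fits of the arrays compared alone or of all arrays together, robust eBayes with a trend, a fold of 1.5, quantile normalization, median centring, a filter on low signal, transcripts of single genes, the mean of a gene's transcripts, HT-29 replicates 2 and 3 alone, and leaving out each array. The t-test was run without the permutation of the methods. Promoters were searched and plots made with Python 3.11.15, pandas 2.3.3, numpy 2.4.6 and matplotlib 3.10.9.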

Additional observations from a re-analysis of the deposited data

How the results depend on the processing

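In HT-29 at 4 h and in the differences between lines the main fit called 0 KLF genes. No alternative other than leaving out an array called any there. A fold threshold of 1.5 could move no count, since every KLF gene called had changed at least 1.95-fold. Of the counts of KLF genes called under alternatives other than leaving out an array, 89 stayed within 1.5 times, all of these among them, and 10 did not. Those were, with the block below, the methods' t-test, with 1 in HT-29 (KLF9) and 1 in HCT116 (KLF5, lower) for 24 h against 4 h and 0 in HCT116 at 4 h and 0 at 24 h; a fit of only the arrays compared, with 2 in HT-29 at 24 h (KLF7 and KLF9); 1 fit of all 18 arrays, with 2 in HT-29 at 24 h (KLF9 and KLF10), 1 in HCT116 at 4 h (KLF6) and 1 for 24 h against 4 h in HCT116 (KLF9); and HT-29 replicates 2 and 3 alone, with 0 at 24 h. No label ties a replicate number to an experiment, and deviations of same-numbered arrays correlated between -0.15 and 0.5 in HT-29, with 4 of 9 pairs over 0.1, and between -0.07 and 0.24 in HCT116, with 5 of 9. With the replicate number as a block, 2 genes were called in HT-29 at 24 h (KLF2 and KLF9), and no other count moved by more than 1.5 times, KLF10 being added in HCT116 at 24 h and KLF3 in HT-29 for 24 h against 4 h. Leaving out 1 array at a time gave counts of 0 to 1 in HT-29 at 4 h, 1 to 3 at 24 h and 1 to 3 for 24 h against 4 h, of 0 to 2, 2 to 3 and 1 to 3 in HCT116, and of 0 to 1, 0 to 0 and 0 to 0 for the difference between lines. KLF13 in HT-29 at 24 h changed sign, to -0.01 with the mean of its transcripts and -0.05 with replicates 2 and 3 alone, and ran between -0.02 and 0.27 over the arrays left out. KLF5 at 24 h ran between -0.54 and 0.99 in HT-29 and between -0.11 and 0.35 in HCT116 over the arrays left out. An adjusted p under 0.05 was reached in HCT116 by KLF7 and KLF9 at 24 h (0.035 and 0.0278) and by KLF9 against 4 h (0.0378) when transcripts of single genes alone were tested, likewise with the mean of a gene's transcripts (0.0337, 0.025 and 0.0364), and by KLF9 in HT-29 against 4 h in the fit of all 18 arrays (0.0364). The first 2 settings test fewer transcripts; for the other changes the cause was not tested.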
